A study of Mus musculus with 6 samples.

Results

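The genes followed here, 8 in all, serve astrocyte upkeep: the water channel gene Aqp4, the glutamate transporter genes Slc1a2 and Slc1a3, the connexin genes Gja1 and Gjb6, the enzyme genes Glul and Aldh1l1, and the bicarbonate cotransporter gene Slc4a4. They were found by gene name, and all 8 were present among the 26554 features of the deposited files and among the 17240 tested after a filter on low counts. The tissue was VPL/VPM, the thalamic nuclei that relay touch and pain signals, dissected from WT C57 mice 14 days after the right nuclei were injected. One group of 3 libraries received 0.01 U of type IV collagenase in 10 nL, an enzyme that breaks down vessel walls and causes a small haemorrhage, as a model of central post-stroke pain. The other group of 3 received 10 nL of saline, so both groups carry a needle wound. The study asked which genes differ between these groups. The labels state neither the age of the animals nor whether a library holds 1 animal or several, so p-values measure the spread between these libraries, which may be technical. The total counts were 36463551 to 44815451 in collagenase libraries and 33603076 to 44363142 in saline libraries.

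Astrocytes are the glial cells that clear transmitter and potassium from around synapses and wrap blood vessels with their endfeet. Glutamate taken up by the transporters GLT-1 (Slc1a2) and GLAST (Slc1a3) is turned into glutamine by glutamine synthetase (Glul) and handed back to neurons. Connexin 43 (Gja1) and connexin 30 (Gjb6) join astrocytes into a network through gap junctions, and aquaporin-4 (Aqp4) carries water across the endfoot membrane. In scar-forming astrocytes the intermediate filament gene Gfap is known to be raised, and aquaporin-4 can lie outside the endfeet.

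Aqp4 was the member whose RNA level rose after collagenase, by 1.76-fold. The other 7 did not pass the test, and their estimated fold changes lay between 0.99 and 1.18. Levels are given as CPM, counts per 1000000 counts of a library whose size is scaled by the TMM method, and fold changes are collagenase over saline from edgeR's quasi-likelihood test. A gene passed at a Benjamini-Hochberg adjusted p under 0.05 over all genes tested. One of the 8 members was thus called higher, against 2.12% of all tested genes called higher, and 0 were called lower, against 0.29%. At an unadjusted p under 0.05 there were 2, Aqp4 and Gja1, against 12% of all tested genes. DESeq2 and limma-voom each called 1 of the 8 as well. The median log2 fold change was 0.08 over the 8 members and -0.02 over all tested genes.

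**Figure D1:**
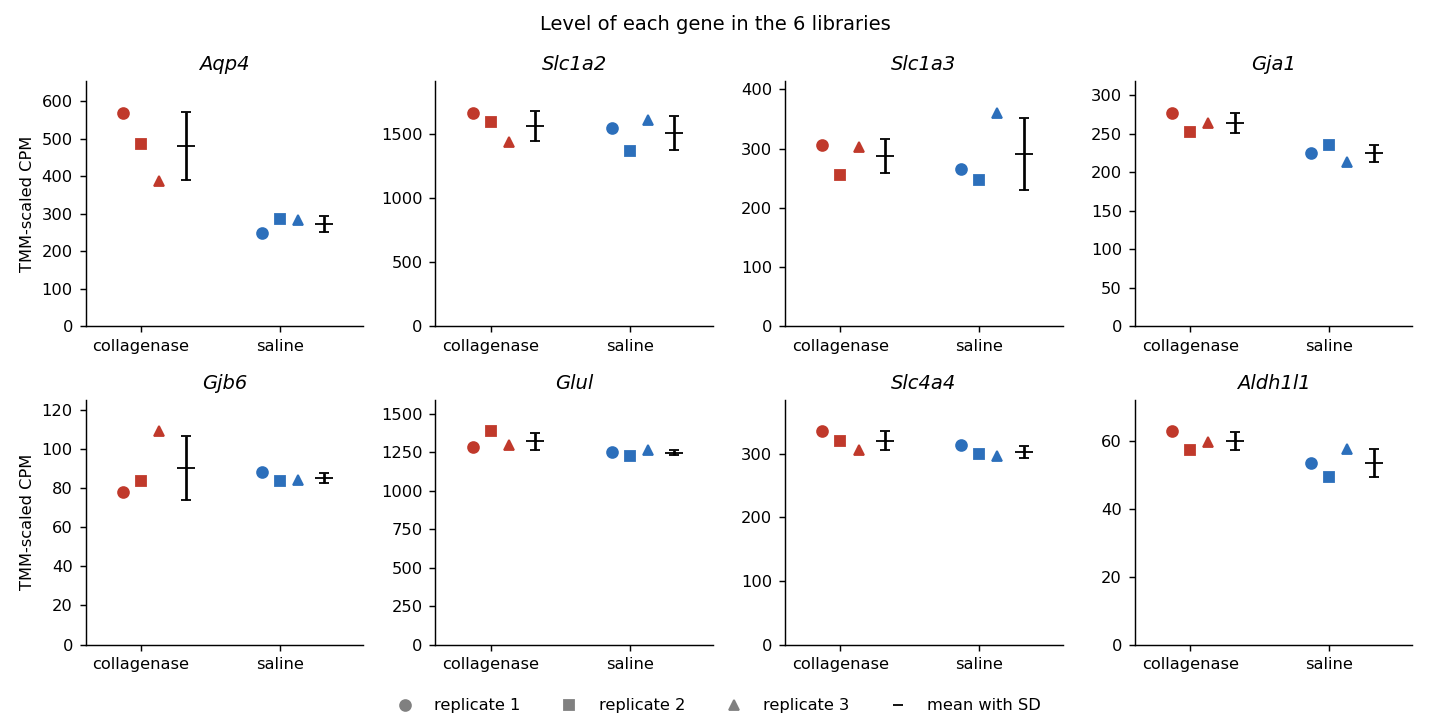
TMM-scaled CPM of each of the 8 genes in the 3 collagenase libraries (red, left) and the 3 saline libraries (blue, right); symbols mark replicates and the black bar the mean with its SD. All axes start at 0. Aqp4 shows the widest gap, with 385.8 to 568.1 CPM after collagenase and 248.9 to 284.6 CPM after saline.

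Aqp4 (ENSMUSG00000024411, on chromosome 18) encodes the main water channel of the brain. It measured 568.1, 486.0 and 385.8 CPM in collagenase replicates 1, 2 and 3, against 248.9, 284.6 and 283.4 CPM in saline replicates 1, 2 and 3. The groups did not overlap, and the collagenase libraries differed more among themselves than the saline libraries did, with replicate 1 highest and replicate 3 lowest. The mean was 480.0 ± 91.3 CPM after collagenase and 272.3 ± 20.2 CPM after saline (SD, n = 3 each). The log2 fold change was 0.82 with a standard error (SE) of 0.15, a 95% interval from 0.47 to 1.16 and an edgeR adjusted p of 0.0317. Of all tested genes, 5.63% had a larger log2 fold change. A change in the number of cells of a type and a change in RNA per cell cannot be told apart in tissue RNA. The call ended in 4 of the 6 edgeR fits that left out a library: the adjusted p was 0.105 without collagenase replicate 1, 0.119 without collagenase replicate 2, 0.173 without saline replicate 1 and 0.058 without saline replicate 2. Over those 6 fits it was higher after collagenase by 0.68 to 0.95 on the log2 scale.

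**Figure D2:**
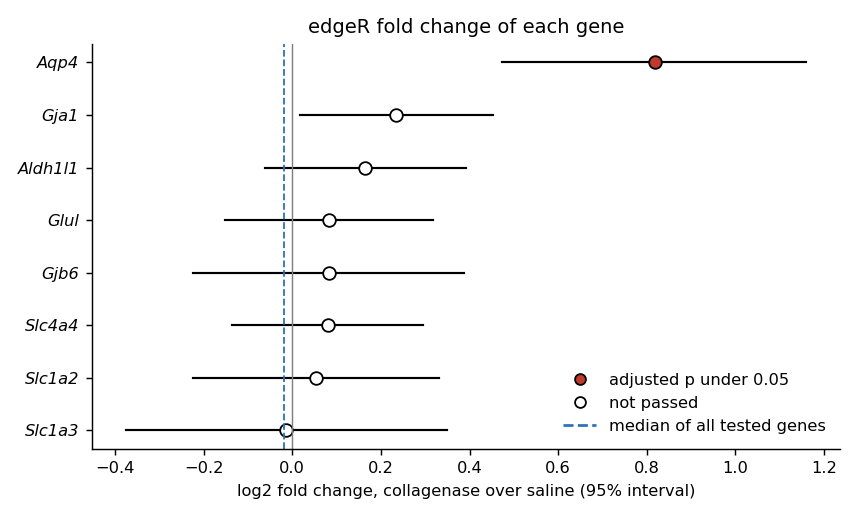
Log2 fold change of collagenase over saline for each gene (points) with its 95% interval (lines) from the edgeR fit, ordered by size. The filled point is Aqp4, which passed; the dashed line is the median of all tested genes, -0.02, and of the other intervals that of Gja1 alone lies above 0, before any adjustment.

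The glutamate transporter genes did not pass. Slc1a2 (ENSMUSG00000005089, GRCm38 chromosome 2, 102658659 to 102790784, plus strand) encodes GLT-1, which carries out most glutamate uptake in the forebrain. It measured 1665, 1595 and 1435 CPM in collagenase replicates 1, 2 and 3, against 1548, 1364 and 1614 CPM in saline replicates 1, 2 and 3. The groups overlapped, with the lowest value in a saline library and the highest in a collagenase library. The fold change was 1.04, with a 95% interval from 0.856 to 1.26 (edgeR adjusted p 0.926). Slc1a3 (ENSMUSG00000005360, chromosome 15, 8634124 to 8710764, minus strand) encodes GLAST, the second glutamate transporter of astrocytes. It measured 305.8, 254.8 and 302.7 CPM in collagenase replicates 1, 2 and 3, against 265.1, 246.6 and 360.2 CPM in saline replicates 1, 2 and 3. Both the lowest and the highest value lay in saline libraries. The fold change was 0.99, with a 95% interval from 0.771 to 1.27 (edgeR adjusted p 0.985), and its sign differs between scalings of the libraries.

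Glul (ENSMUSG00000026473, chromosome 1, 153899944 to 153909723, plus strand), glutamine synthetase, was the most abundant of the 8 per unit of length. It measured 1281, 1384 and 1295 CPM in collagenase replicates 1, 2 and 3, against 1250, 1227 and 1262 CPM in saline replicates 1, 2 and 3. Every collagenase value lay above every saline value, by a small margin. The fold change was 1.06, with a 95% interval from 0.9 to 1.25 (edgeR adjusted p 0.836). Exons of an antisense gene, Gm13872, overlap those of Slc1a2 by 189 bases. Exons of Teddm2, a gene on the opposite strand, overlap those of Glul by 116 bases; Teddm2 had at most 31 counts in a library.

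The promoters of Glul and Slc1a3 are printed because the genes act in 1 cycle and the stretches lie at the 5′ end of their genes. Each is 250 bases before to 50 bases after a transcript start, 5′ to 3′, from RefSeq (GRCm38.p6). Capitals mark matches, on either strand, to TTCNNNGAA (a STAT motif), TTGGC (the half-site of nuclear factor I) and GGGCGG (a GC box). They lie at chr1:153899679-153899978 (plus strand) and chr15:8710758-8711057 (minus strand). The stretch listed for Slc1a2 belongs to a transcript start 47.8 kb inside the gene and is not shown.
Glul: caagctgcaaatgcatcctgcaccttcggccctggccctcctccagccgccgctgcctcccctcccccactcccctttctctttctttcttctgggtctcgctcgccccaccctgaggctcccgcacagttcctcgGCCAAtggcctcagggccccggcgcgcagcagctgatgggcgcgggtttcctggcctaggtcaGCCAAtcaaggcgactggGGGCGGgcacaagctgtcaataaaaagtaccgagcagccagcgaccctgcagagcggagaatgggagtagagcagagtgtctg
Slc1a3: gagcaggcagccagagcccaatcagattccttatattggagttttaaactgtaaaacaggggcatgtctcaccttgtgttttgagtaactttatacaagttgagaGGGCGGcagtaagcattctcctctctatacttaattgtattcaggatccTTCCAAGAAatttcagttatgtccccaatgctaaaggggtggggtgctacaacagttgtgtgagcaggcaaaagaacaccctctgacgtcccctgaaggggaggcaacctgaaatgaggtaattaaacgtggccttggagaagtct
The STAT motif matched in Slc1a3 and not in Glul, against 8.3% of all 32851 promoters of this length. The half-site matched at 2 places in Glul and not in Slc1a3, against 46.7% of all, and the GC box in both, against 35.7% of all. Of 2 further motifs, TATAAA matched in Slc1a3, without capitals above, against 13.6% of all, and ACAAAG (a SOX motif) in neither, against 18.7% of all. The search read both strands, and a match is a description of the letters only.

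The connexin genes differed in their spread. Gja1 (ENSMUSG00000050953, chromosome 10, 56377330 to 56402513, plus strand), connexin 43, measured 276.9, 251.7 and 263.8 CPM in collagenase replicates 1, 2 and 3, against 225.4, 235.2 and 212.7 CPM in saline replicates 1, 2 and 3. The groups did not overlap. The fold change was 1.18, with a 95% interval from 1.01 to 1.37, and the gene did not pass (edgeR p 0.0377 before adjustment, adjusted p 0.366). Gjb6 (ENSMUSG00000040055, chromosome 14, 57123303 to 57133611, minus strand), connexin 30, measured 78.1, 83.9 and 109.1 CPM in collagenase replicates 1, 2 and 3, against 88.1, 83.8 and 84.2 CPM in saline replicates 1, 2 and 3. Its groups overlapped: collagenase replicate 3 was the highest of all 6 libraries and collagenase replicate 1 the lowest. The fold change was 1.06, with a 95% interval from 0.856 to 1.31 (edgeR adjusted p 0.885), and leaving out collagenase replicate 3 gave a log2 fold change of -0.07.

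Slc4a4 (ENSMUSG00000060961, chromosome 5, 88886818 to 89239653, plus strand) encodes NBCe1, a sodium bicarbonate cotransporter that takes part in pH control around neurons. It measured 334.9, 320.3 and 305.1 CPM in collagenase replicates 1, 2 and 3, against 313.4, 299.3 and 296.0 CPM in saline replicates 1, 2 and 3. The groups overlapped, and the fold change was 1.06 with a 95% interval from 0.911 to 1.23 (edgeR adjusted p 0.824). Aldh1l1 (ENSMUSG00000030088, chromosome 6, 90486427 to 90600203, plus strand) encodes a folate enzyme widely used as a marker of all astrocytes. It measured 62.9, 57.5 and 59.9 CPM in collagenase replicates 1, 2 and 3, against 53.7, 49.5 and 57.6 CPM in saline replicates 1, 2 and 3. Collagenase replicate 2 lay just below saline replicate 3, so the groups overlapped. The fold change was 1.12, with a 95% interval from 0.957 to 1.31 (edgeR adjusted p 0.592). Exons of the antisense gene Gm15756 overlap those of Aldh1l1 by 499 bases, and the protocols describe no strand-specific library, so reads of the pair cannot be told apart.

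The 7 members that did not pass had 95% intervals that together ran from a fold change of 0.771 to 1.37. Without overlap between groups and higher after collagenase were 3 of the 8, namely Aqp4, Gja1 and Glul (37.5%), against 10.1% of all tested genes; 0 were lower without overlap, against 7.5%. On the deposited FPKM values, which are scaled per length and library by the authors, 4 of the 8 were higher without overlap, Aldh1l1 being the addition, against 15.6% of all tested genes on that scale. The spread within a group, as the SD over the mean, ran from 4.26% (Glul) to 19.0% (Aqp4) in collagenase libraries. In saline libraries it was narrowest for Glul, at 1.39%, and widest for Slc1a3, whose mean was 290.7 ± 61.0 CPM (SD, n = 3). The 8 members together summed to 4572, 4434 and 4156 CPM in collagenase replicates 1, 2 and 3, against 3992, 3791 and 4169 CPM in saline replicates 1, 2 and 3, and these sums overlapped.

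The order of mean levels per length was close to the same in both groups, except for Aqp4. By deposited FPKM, Glul came first, with 468.4, 476.6 and 443.0 in collagenase replicates 1, 2 and 3, against 421.2, 420.6 and 386.3 in saline replicates 1, 2 and 3. Slc1a2 followed with 132.8 ± 14.3 and 119.6 ± 6.53 FPKM in collagenase and saline libraries (SD, n = 3 each, as for the genes below it). Aqp4 came next after collagenase, at 94.2 ± 21.3 FPKM, but below Gja1 and Slc1a3 after saline, at 49.7 ± 3.84 FPKM. Gja1 had 84.4 ± 6.91 and 67.2 ± 7.23 FPKM, and Slc1a3 67.8 ± 8.24 and 63.5 ± 9.17 FPKM, in collagenase and saline libraries. Gjb6 had 42.4 ± 6.61 and 37.5 ± 2.44 FPKM, Slc4a4 39.9 ± 3.38 and 35.3 ± 2.66 FPKM, and Aldh1l1 17.7 ± 1.01 and 14.5 ± 0.0404 FPKM, again in collagenase and saline libraries. The ranges of some neighbours in the order overlapped: Aqp4 and Gja1 after collagenase, Gja1 and Slc1a3 after saline, and Gjb6 and Slc4a4 in both groups. Compared inside each library, Gjb6 lay above Slc4a4 in 3 of 3 saline libraries but in 1 of 3 collagenase libraries. Aqp4 lay above Gja1 in 2 of 3 collagenase libraries, and Gja1 above Slc1a3 in 2 of 3 saline libraries. Per unit of length, Aqp4 made up 11.6%, 10.0% and 8.2% of the summed FPKM of the 8 in collagenase replicates 1, 2 and 3, against 5.75%, 6.7% and 6.25% in saline replicates 1, 2 and 3.

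**Figure D3:**
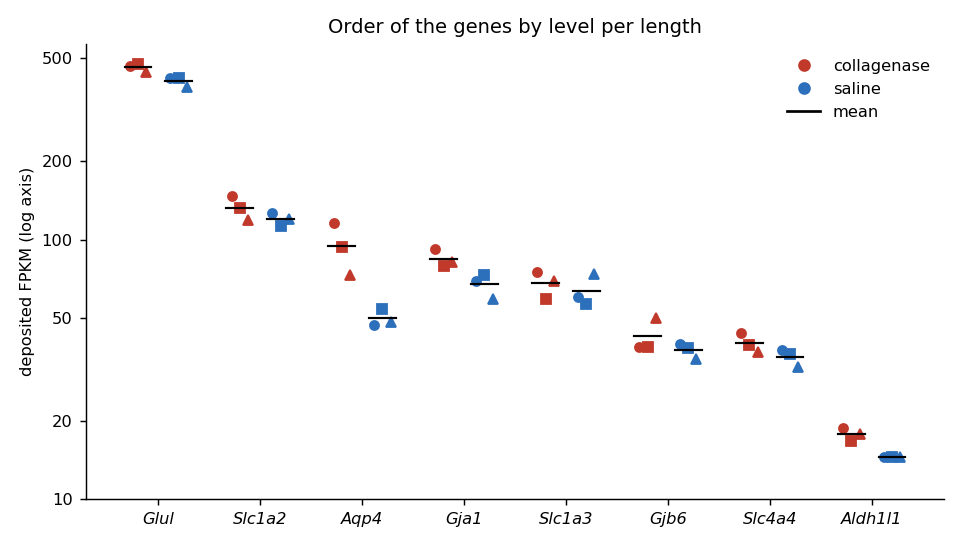
Deposited FPKM of the 8 genes on a log axis, ordered by their mean after collagenase, with collagenase libraries (red) left of saline libraries (blue); circles, squares and triangles are replicates 1, 2 and 3 and black lines the means. Glul lies highest at 386.3 to 476.6 FPKM and Aldh1l1 lowest at 14.5 to 18.7 FPKM.

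Ratios of 2 genes inside 1 library do not depend on how the libraries are scaled, and 6 pairs were compared. The ratio of Aqp4 to Slc1a2 in FPKM was 0.787, 0.706 and 0.616 in collagenase replicates 1, 2 and 3, against 0.372, 0.478 and 0.402 in saline replicates 1, 2 and 3. Every collagenase library had the higher ratio, and the difference was 0.75 on the log2 scale. The ratio of Aqp4 to Gja1 was 1.26, 1.19 and 0.89 in collagenase replicates 1, 2 and 3, against 0.679, 0.738 and 0.812 in saline replicates 1, 2 and 3. Again the groups did not overlap, with a log2 difference of 0.57. Both pairs reached p = 0.1 in a two-sided exact permutation test, the smallest p that 3 against 3 libraries allow, and an adjusted p of 0.3 over the 6 pairs. The other 4 ratios overlapped between groups. Slc1a2 to Slc1a3 was 1.71 to 2.26 after collagenase and 1.62 to 2.1 after saline (exact permutation p = 0.8), and Glul to Slc1a2 was 3.18 to 3.73 after collagenase and 3.23 to 3.72 after saline (exact permutation p = 0.9). Gja1 to Gjb6 was 1.64 to 2.4 after collagenase and 1.7 to 1.92 after saline (exact permutation p = 0.4), its highest value in collagenase replicate 1 and its lowest in collagenase replicate 3. Slc4a4 to Aldh1l1 was 2.08 to 2.35 after collagenase and 2.23 to 2.59 after saline (exact permutation p = 0.3).

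**Figure D4:**
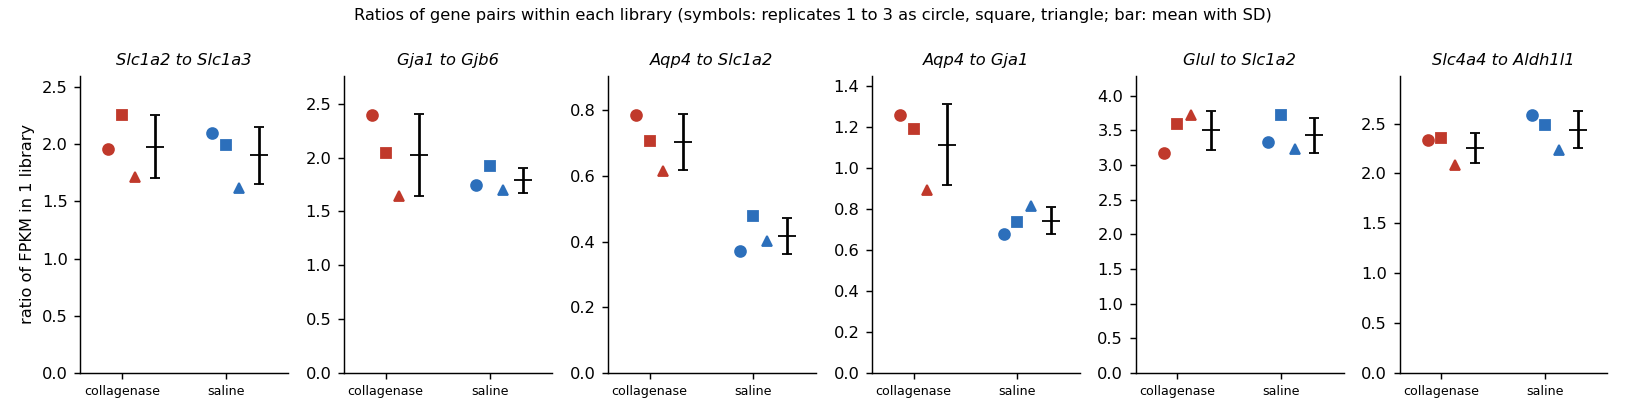
Ratio of deposited FPKM of 6 gene pairs within each library, collagenase (red) left of saline (blue), with the mean and SD as black bars and all axes from 0. The groups are apart for Aqp4 to Slc1a2 (0.616 to 0.787 after collagenase, 0.372 to 0.478 after saline) and for Aqp4 to Gja1, and overlap for the other 4 pairs.

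Other genes of astrocyte identity gave a second scale. Of 25 such genes, all tested, 0 passed in either direction with edgeR, and 5 were higher without overlap (10.1% of all tested genes were); their median log2 fold change was 0.07. Clu, a secreted chaperone, measured 1173 ± 81.4 CPM after collagenase and 828.1 ± 166.0 CPM after saline (SD, n = 3 each) without overlap and did not pass (edgeR adjusted p 0.2), but it passed with DESeq2 (adjusted p 0.0423) and in edgeR without saline replicate 3 (adjusted p 0.0207). Cst3, a protease inhibitor, measured 835.2 ± 69.8 CPM after collagenase and 735.8 ± 134.0 CPM after saline (edgeR adjusted p 0.722). At an unadjusted p under 0.05 there were 4 of the 25; DESeq2 called 2, Agt and Clu, both higher, and limma-voom 0. The median CPM of the list is the level of its middle gene in each library. It was 145.8, 153.1 and 151.4 in collagenase replicates 1, 2 and 3, against 133.6, 125.1 and 140.0 in saline replicates 1, 2 and 3. It was thus higher in every collagenase library. Set against this median within a library, Aqp4 was higher after collagenase by 0.63 on the log2 scale without overlap (exact permutation p = 0.1, adjusted p 0.4 over the 8 members). The other 7 overlapped between groups on this scale, with log2 differences from -0.18 (Slc1a3) to 0.06 (Gja1). On deposited FPKM all 8 differences shifted upward and lay above 0. The shift was from 0.63 to 0.87 for Aqp4 and from -0.18 to 0.07 for Slc1a3. The list median is common to all 8, so the 6 turned signs are no change of these members against each other. When each list gene was first centred on its own mean, Gja1 also did not overlap, with a log2 difference of 0.15. The list median centred in this way was 0.0649, 0.042 and 0.059 in collagenase replicates 1, 2 and 3 on the log2 scale. In saline replicates 1, 2 and 3 it was -0.062, 0.00165 and -0.0405.

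Reactive astrocyte genes moved in the same libraries: 11 of 24 rose, 0 fell and 13 did not pass, with a median log2 fold change of 1.33. Of all tested genes, 2.12% rose and 0.29% fell. DESeq2 called 16 of the 24 and limma-voom 14, all higher. Higher without overlap were 18 of the 24, against 10.1% of all tested genes. Gfap, the main intermediate filament of reactive astrocytes, measured 775.6, 695.9 and 441.7 CPM in collagenase replicates 1, 2 and 3, against 174.6, 250.6 and 133.6 CPM in saline replicates 1, 2 and 3. Within the collagenase group its order was that of Aqp4, with replicate 1 highest and replicate 3 lowest. The sum of microglia and macrophage markers had that order too, at 966.4, 794.0 and 701.1 CPM. The order was not particular to them. Slc1a2 and Slc4a4, which did not pass, shared it. So did the sum of GABAergic markers, which was lower after collagenase, at 839.6, 793.0 and 636.5 CPM in collagenase replicates 1, 2 and 3. The log2 fold change of Gfap was 1.78 (SE 0.28, edgeR adjusted p 0.0211), and the call ended in 3 of the 6 fits without a library. Vim, a second filament gene, measured 95.9 ± 17.0 CPM after collagenase and 35.4 ± 4.84 CPM after saline (SD, n = 3 each; log2 fold change 1.44, SE 0.16). The others that rose were Serpina3n, Lcn2, Cd44, Steap4, Cp, Tgm1, C3, Ggta1 and Lgals3, and several of these are also made by microglia, macrophages or neutrophils. The call of Ggta1 ended in 4 of the 6 fits and that of Steap4 in 1.

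**Figure D5:**
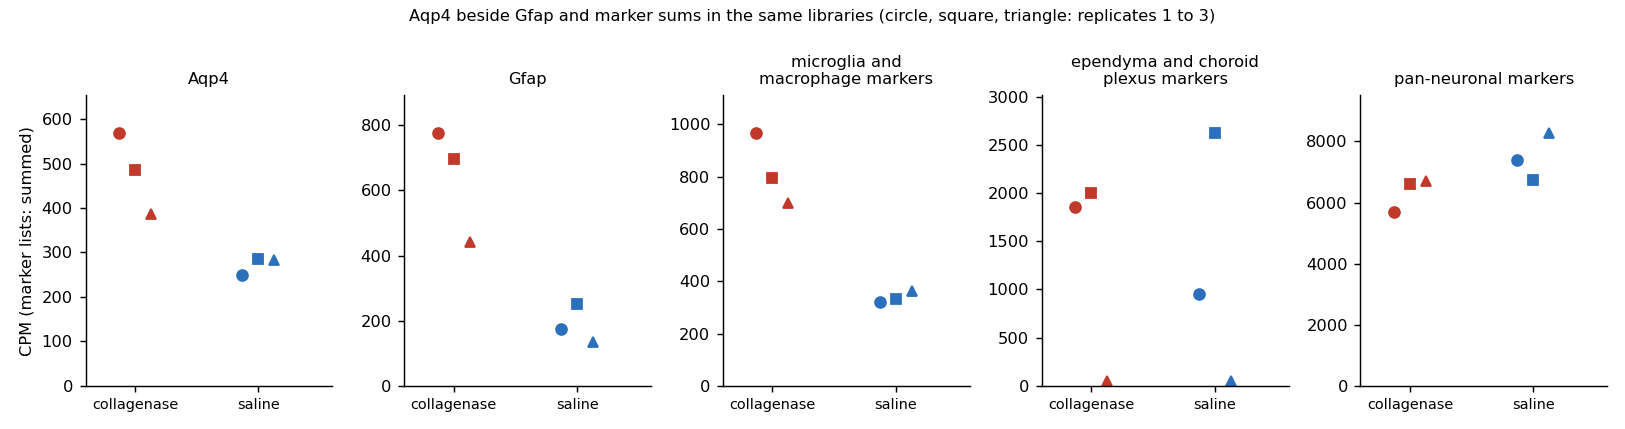
CPM of Aqp4 and Gfap and summed CPM of 3 marker lists in the same 6 libraries, collagenase (red) left of saline (blue), replicates 1 to 3 as circle, square and triangle, all axes from 0. Aqp4, Gfap and the microglial sum are higher in every collagenase library, the pan-neuronal sum is lower, and the joint sum of ependyma and choroid plexus markers, which Ttr dominates, is at 48.5 and 53.9 CPM in replicate 3 of collagenase and of saline.

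Markers of other cells moved with the groups as well. The counts below stand beside 2.12% of all tested genes called higher with edgeR and 0.29% called lower. The summed level of 10 microglia and macrophage markers was 701.1 to 966.4 CPM after collagenase and 320.0 to 362.1 CPM after saline, and 8 of the 10 rose. The sum of 10 pan-neuronal markers was 5702 to 6715 CPM after collagenase and 6736 to 8269 CPM after saline, with Snap25 and Syt1 its most abundant. Of the 10, 3 were lower without overlap, against 7.5% of all tested genes, and 1 was higher, against 10.1%. The higher one was Map2, at 524.7 to 546.7 CPM after collagenase and 478.5 to 507.7 CPM after saline. Of these 10 markers, 0 passed with edgeR, DESeq2 or limma-voom (1 at an unadjusted p under 0.05). The sum of 9 pericyte and smooth muscle markers was 352.5 to 413.3 CPM after collagenase and 304.2 to 338.8 CPM after saline (0 passed with these tools, 4 at an unadjusted p under 0.05), and that of 9 fibroblast and meningeal markers 223.2 to 262.7 CPM after collagenase and 112.4 to 171.8 CPM after saline (3 rose: Col1a1, Col1a2 and Dcn). The sums of 9 endothelial, 11 oligodendrocyte, 8 precursor, 12 thalamic relay and 10 habenular markers overlapped between groups. The habenular sum was weighted by Cck, its most abundant marker, which was lower after collagenase without overlap. The other 9 habenular markers had a log2 fold change above 0 (median of the 10, 1.05), and 0 of the 10 passed. Gpr151, for example, measured 18.46, 8.63 and 33.58 CPM in collagenase replicates 1, 2 and 3, against 2.186, 0.64 and 21.65 CPM in saline replicates 1, 2 and 3. The sums of 10 GABAergic and 11 hippocampal and cortical markers were lower after collagenase without overlap, at 636.5 to 839.6 CPM and 372.6 to 419.1 CPM, against 901.5 to 1220 CPM and 463.4 to 486.9 CPM after saline. With edgeR, Dlx1 was the marker of these that fell. Ecel1, of the GABAergic list, went the other way without overlap, at 26.29 to 29.57 CPM after collagenase and 12.95 to 20.44 CPM after saline. It did not pass with edgeR. DESeq2 called Dlx1 and Dlx2 lower and Ecel1 higher, and limma-voom called Dlx1 lower and Ecel1 higher. At an unadjusted p under 0.05 in edgeR there were 7 of the 10 GABAergic markers. Lower without overlap were 4 of the 10 GABAergic markers and 0 of the 11 hippocampal and cortical markers, against 7.5% of all tested genes. Of these 11, 2 had a log2 fold change above 0. Saline libraries differed among themselves: Neurod6 measured 23.03, 39.77 and 0.176 CPM in saline replicates 1, 2 and 3. In collagenase replicates 1, 2 and 3 it measured 3.655, 0.5377 and 0.5701 CPM. Emx1 was at 0 in saline replicate 3, and no other marker was at 0 in a library. The part of these differences in the level of Aqp4 was not tested.

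Ependyma, the lining of the ventricles, also makes aquaporin-4, and its markers were summed apart from those of choroid plexus, a split made after their values were seen. The 4 ependymal markers (Foxj1, Ccdc153, Tmem212 and Dynlrb2) summed to 36.1, 23.1 and 29.0 CPM in collagenase replicates 1, 2 and 3, against 16.6, 18.8 and 32.6 CPM in saline replicates 1, 2 and 3. These sums overlapped, with saline replicate 3 above both collagenase replicates 2 and 3. The 6 choroid plexus markers, led by Ttr, varied far more: Ttr measured 1669, 1853 and 10.2 CPM in collagenase replicates 1, 2 and 3, against 847.0, 2382 and 12.9 CPM in saline replicates 1, 2 and 3. In the pair of libraries with little Ttr, Aqp4 measured 385.8 CPM after collagenase and 283.4 CPM after saline. In the other 4 it measured 568.1 and 486.0 CPM after collagenase, against 248.9 and 284.6 CPM after saline. Without collagenase replicate 3 the log2 fold change of Aqp4 was 0.95, and leaving out saline replicate 3 gave 0.85; both kept the call.

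The genes for proteins that hold aquaporin-4 at the endfoot, and the other aquaporin genes, did not pass the test. Of 18 genes of the dystrophin-associated complex and of endfoot membranes, 0 passed, with a median log2 fold change of 0.06, and 1 was higher without overlap; at an unadjusted p under 0.05 in edgeR, and with DESeq2 and limma-voom, there were also 0. The most abundant per length were Kcnj10, a potassium channel of astrocyte endfeet, with 572.3 ± 44.2 CPM after collagenase and 558.1 ± 138.0 CPM after saline, and Mlc1, a membrane protein of astrocyte contacts, with 181.1 ± 17.4 CPM after collagenase and 168.5 ± 24.9 CPM after saline (SD, n = 3 each). The log2 fold change of Kcnj10 was 0.04 (95% interval -0.36 to 0.43) and that of Mlc1 was 0.10 (-0.20 to 0.41). The difference between these changes and that of Aqp4 was not tested. Only 5 of the 11 other aquaporin genes stayed above the filter on low counts, and 0 passed with edgeR, DESeq2 or limma-voom, or at an unadjusted p under 0.05. Aqp1, the water channel of the choroid plexus, measured 15.2, 14.2 and 1.71 CPM in collagenase replicates 1, 2 and 3, against 7.25, 17.6 and 0.44 CPM in saline replicates 1, 2 and 3, low in the same libraries as Ttr. Aqp11 measured 12.9 ± 0.522 CPM after collagenase and 15.7 ± 3.91 CPM after saline.

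Around the glutamate transporters, 18 further genes of glutamate transport and the glutamine cycle were tested, with a median log2 fold change of -0.01. Of all tested genes, 2.12% rose and 0.29% fell. Of the 18, 0 rose, 17 did not pass and 1 fell. The one was Slc17a7, a vesicular glutamate transporter of neurons, with 249.2 ± 13.6 CPM after collagenase and 442.6 ± 52.0 CPM after saline; its call ended in 4 of the 6 fits without a library and with limma on FPKM. Of the aspartate aminotransferases Got1 and Got2, Got1 measured 366.4 ± 6.35 CPM after collagenase and 420.6 ± 50.7 CPM after saline, and Got2 330.9 ± 40.1 CPM after collagenase and 355.3 ± 63.7 CPM after saline (SD, n = 3 each). Got1 was lower without overlap, and neither passed. Of 12 tested genes among the other connexins and pannexins 0 passed, with a median log2 fold change of 0.00; 2 had an unadjusted p under 0.05, DESeq2 called 1 (Gjb2, higher) and limma-voom 0. Gjc3, connexin 29 of myelin-forming cells, measured 119.2, 115.1 and 79.2 CPM in collagenase replicates 1, 2 and 3, against 138.5, 126.8 and 135.6 CPM in saline replicates 1, 2 and 3; the groups did not overlap, but it did not pass (edgeR adjusted p 0.414). Panx2, a pannexin of the brain, measured 204.1 ± 32.9 CPM after collagenase and 201.8 ± 28.9 CPM after saline.

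Of 22 tested genes of bicarbonate, proton and lactate transport around Slc4a4, 1 rose, 1 fell and 20 did not pass. Of all tested genes, 2.12% rose and 0.29% fell. Car13, a cytosolic carbonic anhydrase, measured 2.93 ± 0.225 CPM after collagenase and 1.00 ± 0.273 CPM after saline, with a log2 fold change of 1.55 (SE 0.27, edgeR adjusted p 0.0271). Car4, a carbonic anhydrase on the outer surface of brain capillaries, measured 38.5 ± 3.55 CPM after collagenase and 65.6 ± 11.7 CPM after saline, with a log2 fold change of -0.77 (SE 0.14, edgeR adjusted p 0.0328). Each of these calls ended in 4 of the 6 fits without a library. Car2 and Bsg, the most abundant of the list per length, did not pass: Car2 measured 376.8 ± 38.4 CPM after collagenase and 399.9 ± 20.2 CPM after saline, and Bsg 493.0 ± 26.9 CPM after collagenase and 489.3 ± 27.5 CPM after saline. Of 24 folate and one-carbon genes around Aldh1l1 0 passed with edgeR, DESeq2 or limma-voom (median log2 fold change 0.05; 1 at an unadjusted p under 0.05); Gart measured 35.2 ± 1.85 CPM after collagenase and 34.7 ± 3.34 CPM after saline, and Gcsh 55.0 ± 5.27 CPM after collagenase and 58.4 ± 7.8 CPM after saline. Of 16 genes of potassium, GABA and glycine uptake 0 passed (median 0.05; 3 at an unadjusted p under 0.05); DESeq2 called 1, Fxyd1, higher, and limma-voom 0. Among its abundant members per length, Atp1b2 measured 959.5 ± 144.0 CPM after collagenase and 895.0 ± 297.0 CPM after saline. Of 17 astrocyte transcription factor genes 0 passed with any of these tools (median -0.06; 1 at an unadjusted p under 0.05); Id3 measured 31.9 ± 4.96 CPM after collagenase and 28.4 ± 8.95 CPM after saline, and Id4 125.2 ± 16.1 CPM after collagenase and 156.3 ± 49.0 CPM after saline.

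The genes whose profile over the 6 libraries lay nearest to each member were found among 10863 annotated genes with a mean log2 CPM of at least 3, by the root mean square difference of centred log2 CPM. Nearest to Aqp4 were Vsir (0.058), Man2b1 (0.0661) and Csf1r (0.0691). Vsir measured 54.2, 46.9 and 38.4 CPM in collagenase replicates 1, 2 and 3, against 25.2, 28.4 and 25.5 CPM in saline replicates 1, 2 and 3, the same order of libraries within the collagenase group as Aqp4. Among the members, the nearest to Aqp4 was Gja1, much farther away at 0.33. Glul and Slc4a4 were nearest to each other among the members, at 0.0617, and Slc1a2 lay at 0.0805 from Slc4a4. Nearest to Glul among all candidates were Ercc3 (0.00717) and Slc1a4 (0.021), and nearest to Gjb6 were Cdk10 (0.0118), Atraid (0.0444) and Zdhhc16 (0.045). Nearest to Gja1 were Apcdd1 (0.0358), Eif4b (0.0364) and Slc39a11 (0.037), to Slc1a2 Plekhh2 (0.0188), Pcsk6 (0.0211) and Spg20 (0.0244), and to Slc1a3 Xab2 (0.0346), Rbmx (0.0443) and Zfp825 (0.0496). Nearest to Slc4a4 were Utp6 (0.0221), Rubcn (0.024) and Hps4 (0.0246), and to Aldh1l1 Bbs9 (0.0328), Sdc3 (0.0346) and Slc7a5 (0.039). With 6 libraries and 10863 candidates, near matches of this kind describe these libraries only.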

How the data were processed

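Per the labels' protocols, poly(A) RNA of VPL/VPM tissue was captured on oligo(dT) beads and copied with random hexamers, and no strand-specific step is described. Per the submitters' processing notes, HISAT2 2.2.1, StringTie, FastQC and DESeq2 were used with build GRCm38; their roles are not stated. The authors deposited a whole-number count and an FPKM value for each of 26554 features per library. The deposited counts were not scaled to library size: their totals differed. A count of 2 was more frequent than a count of 1 in every library (570 to 653 against 145 to 187 features); the reason is not given in the labels, and halved counts were tried as an alternative. Once each library's median ratio was divided out, the ratio of count to FPKM of a member varied between libraries by 1.003 to 1.08-fold. Lines of spilled annotation text (10 to 30 per library) were skipped, and symbols came from Ensembl identifiers (22022 matched).

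Groups came from the sample titles. Counts were tested with edgeR 4.0.16 (R 4.3.3) by filterByExpr, TMM factors (0.898 to 1.06) and the robust quasi-likelihood test, two-sided, over 17240 genes; 416 passed at an adjusted p under 0.05. DESeq2 1.42.0 and limma 3.58.1 served as alternatives; FPKM tests used pseudocounts of 0.1 and 1. Ratios and values relative to the astrocyte list used exact permutation over 20 splits. Named genes are the 8 members, list genes that passed, the 2 most abundant of each list by FPKM and the 3 nearest profiles; 1 gene that this rule names is not reported here. Slc1a7, Slc4a1 and some aquaporin and connexin genes had too few counts to be tested, and Pc was not found by symbol. The members and lists were chosen with earlier results of these data known. Positions are from GENCODE M21 (GRCm38); no sequence of Aqp4 was used here.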

Additional observations from a re-analysis of the deposited data

How the results depend on the processing

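Aqp4 had a log2 fold change above 0 in all 19 alternatives. It no longer passed with limma on log2(FPKM + 0.1) without a filter (0.90, adjusted p 0.0787, over 22748 features) and with the replicate number as a block (0.80, adjusted p 0.0766), so that 0 of the 8 members were called in both, and it no longer passed in 4 of the 6 fits without 1 library (0.68 to 0.95, adjusted p 0.0248 to 0.173; 0 to 1 members called). The labels do not say what the replicate numbers share. Deviations of same-numbered libraries correlated at 0.0439, 0.107 and 0.203, and replicates 1 did not correlate best with their own number, so the numbers were not taken as pairs; the block gave 302 calls, without those of Car13 (adjusted p 0.0591), Car4 (0.0604) and Ggta1 (0.0633). The other 7 members passed in none of the 19 alternatives. The sign of Slc1a3 turned to 0.0219 with upper-quartile factors, 0.0792 with total counts, 0.00024 with limma-voom, 0.096 and 0.0943 with limma on FPKM (pseudocounts 0.1 and 1, also 0.096 without a filter) and 0.00085 with the block; without 1 library it was -0.12 to 0.17. Without 1 library Slc1a2 was -0.0165 to 0.113 and Gjb6 -0.0748 to 0.176. The cause was not tested.

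The 416 calls (366 higher, 50 lower) became 788 (608 and 180) with DESeq2 and 238 (229 and 9) with limma on unfiltered FPKM, and 85 to 917 (81 to 503 higher, 4 to 414 lower) without 1 library; lower calls were 29 with total counts only, and 24 and 26 with limma on filtered FPKM at pseudocounts of 0.1 and 1. Halving the counts, an alternative chosen after seeing the data, gave 409. Among named genes other than the members, limma on unfiltered FPKM lost the calls of Gfap (adjusted p 0.0557), Ggta1 (0.0624), Car4 (0.0557) and Slc17a7 (0.0908).

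Set against the astrocyte list, FPKM moved the log2 differences to 0.87 for Aqp4, 0.12 for Slc1a2, 0.0687 for Slc1a3, 0.30 for Gja1, 0.14 for Gjb6, 0.15 for Glul, 0.15 for Slc4a4 and 0.26 for Aldh1l1; the list mean gave -0.0288 for Glul, and genes centred first (chosen after seeing the data) gave -0.0064 for Glul and 0.0774 for Aldh1l1. Without 1 library Aqp4 stayed at 0.47 to 0.78 and Glul at -0.124 to -0.0621. The cause was not tested. The 6 ratios moved by less than the spread between libraries with FPKM.

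Of the other named genes that did not pass, signs turned without 1 library for Mlc1 (-0.0146 to 0.179), Kcnj10 (-0.0828 to 0.256), Aqp1 (-0.253 to 1.41), Got2 (-0.209 to 0.0462), Panx2 (-0.076 to 0.142), Bsg (-0.0344 to 0.0487), Gart (-0.0532 to 0.0833), Atp1b2 (-0.0439 to 0.405) and Id3 (-0.0575 to 0.386). With limma on FPKM at pseudocounts of 0.1 and 1, signs turned for Got2 (0.000254 and 0.000234), Car2 (0.0079 both) and Gcsh (0.0127 and 0.012). With 3 libraries a group, the 95% intervals of the 7 members that did not pass reached up to 1.37-fold.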
